A study of Mus musculus with 6 samples.

Results

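The genes described here are the 16 protein-coding genes whose level was at least 2 times higher in every Rroid-deficient library than in any wildtype library. They were chosen by the measured values themselves, in CPM, the read count of a gene scaled by the library's total of reads assigned to genes. A gene was kept when its lowest deficient CPM was at least 2 times its highest wildtype CPM and its mean deficient CPM was 15 or more. Heat shock genes of the Hspa, Hsph, Hsp90 and Dnaj families and Cd3 genes were left out. The rule kept 16 of 20230 protein-coding genes in the files, or 0.0791%. They are Adgrl2, Pgp, Xrcc3, Gzmm, Il21r, Clip3, Lcmt2, Osm, Hectd2, Tmem64, Ttn, Chchd1, Mrps12, Hid1, Iscu and B3glct. Because the genotypes were compared to choose them, their difference between genotypes is a description, and the counts of calls given for them further on come from the same values and are no test of it.

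The libraries were made from natural killer (NK) cells positive for CD27 and CD11b, sorted from the spleens of C57BL6 mice. There were 3 libraries of wildtype genotype and 3 of Rroid-deficient genotype, where Rroid is a long noncoding RNA gene close to Id2. Its own transcript was not analysed here. All 6 share strain, tissue and sort, and the labels name no treatment, age or sex and do not describe the deficient allele. Whether each library stands for its own mouse is left unstated, so the spread between libraries may be technical. In bulk samples, fewer cells of a type and less RNA per cell cannot be told apart.

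NK cells are innate lymphocytes that kill infected or transformed cells with granzymes and perforin, and they mature in stages that are marked by CD27 and CD11b. Id2 binds E proteins, a family of transcription factors, and keeps them from their DNA sites, which read CANNTG and are called E-boxes. NK cells depend on Id2, and E proteins released from it can switch on genes of other lymphocyte programs. Cytokine receptors that share the common gamma chain, among them those for IL-15 and IL-21, act through JAK kinases and STAT factors.

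Promoter sequences are shown for 5 members whose promoter held letters of an E protein or STAT site, so that the match can be read beside the levels. Pgp and Ttn, which also held an E-box form, are not shown. RefSeq's table on GRCm38.p6, another build than that of the counts, gave 12 promoters for 11 of the 16 members, and 2 of these belonged to Gzmm. Osm, Hectd2, Tmem64, Hid1 and Iscu had no entry. Each line gives the 250 bases before the annotated start, 5′ to 3′ on the gene's strand. Capitals mark CAGCTG, an E-box form that E proteins bind, and TTCNNNGAA, the form that STAT factors bind.
Gzmm, chr10:79688770-79689019 (+): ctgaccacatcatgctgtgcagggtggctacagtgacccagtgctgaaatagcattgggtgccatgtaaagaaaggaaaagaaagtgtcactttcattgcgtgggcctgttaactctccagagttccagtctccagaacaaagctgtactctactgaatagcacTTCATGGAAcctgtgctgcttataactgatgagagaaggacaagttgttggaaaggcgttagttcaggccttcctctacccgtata
Adgrl2, chr3:148954636-148954885 (-): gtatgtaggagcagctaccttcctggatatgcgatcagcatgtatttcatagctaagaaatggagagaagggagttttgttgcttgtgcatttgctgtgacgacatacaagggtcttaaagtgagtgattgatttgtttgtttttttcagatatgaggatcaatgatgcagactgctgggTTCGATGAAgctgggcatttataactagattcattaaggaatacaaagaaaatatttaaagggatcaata
B3glct, chr5:149677980-149678229 (+): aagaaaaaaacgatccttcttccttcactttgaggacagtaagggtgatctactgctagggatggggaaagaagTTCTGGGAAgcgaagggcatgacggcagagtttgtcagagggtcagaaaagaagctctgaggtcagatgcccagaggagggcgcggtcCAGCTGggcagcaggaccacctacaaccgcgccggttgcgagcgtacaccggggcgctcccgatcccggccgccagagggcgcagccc
Lcmt2, chr2:121140699-121140948 (-): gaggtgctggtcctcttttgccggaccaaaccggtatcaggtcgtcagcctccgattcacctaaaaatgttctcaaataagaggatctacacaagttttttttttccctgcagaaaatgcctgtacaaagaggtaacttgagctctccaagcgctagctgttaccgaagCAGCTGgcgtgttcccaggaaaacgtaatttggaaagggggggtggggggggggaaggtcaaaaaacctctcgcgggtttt
Chchd1, chr14:20702777-20703026 (+): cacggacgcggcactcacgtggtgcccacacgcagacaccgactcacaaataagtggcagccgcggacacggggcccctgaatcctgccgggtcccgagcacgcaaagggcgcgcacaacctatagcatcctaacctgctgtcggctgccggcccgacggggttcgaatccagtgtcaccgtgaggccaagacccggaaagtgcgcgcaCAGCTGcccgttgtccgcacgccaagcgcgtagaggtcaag

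Windows of 250 bases before to 50 bases after the start were searched on both strands. The letters TTCNNNGAA stood in 4 of the 12 member promoters (33.3%), those of Adgrl2, B3glct, Gzmm and Lcmt2, and in 7.11% of 10081 promoters of tested protein-coding genes. In Lcmt2 the match lies in the 50 bases after the start, which are not shown. CAGCTG stood in 4 (33.3%), those of B3glct, Chchd1, Lcmt2 and Pgp, against 14.3% of all. The form CAGGTG stood in 1 (8.33%), that of Ttn, against 17.0%. CANNTG, which includes both of these forms, stood in 8 (66.7%) against 63.1%. The heat shock element core GAANNTTC, the CRE letters TGACGTCA and the AP-1 letters TGANTCA stood in 0 of the 12, against 5.63%, 3.22% and 4.75% of all promoters. A match is a description of the letters in these windows and says nothing about binding.

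Assigned reads numbered 5823626 to 9216430 in the wildtype and 6146465 to 7363793 in the deficient libraries. Id2 checks the labels: it had 432, 342 and 373 CPM in wildtype and 36.7, 66.5 and 82.9 CPM in deficient libraries 1 to 3. The 8 NK cell markers listed were all present, with a summed level of 11499 to 11811 CPM in wildtype and 8886 to 9429 CPM in deficient libraries. Klrb1c, Klrk1, Eomes and Gzma lay lower in all deficient libraries and the other 4 overlapped. Over all tested protein-coding genes, 7.11% lay lower in all deficient libraries and 4.97% higher, the shares to set beside the markers of this paragraph. Gzma, at a mean of 4500 CPM in wildtype and 2531 CPM in deficient libraries, made up most of the difference in the sum, while the means of Il2rb (2724 and 2869 CPM) and Itga2 (398 and 484 CPM) were higher in deficient libraries. Of 12 T cell markers, 5 were tested, Cd6 and Cd8a had no read in any library, and Cd3e had counts of 0, 3 and 0 in wildtype and none in deficient libraries. Cd4 had 57 counts and Cd8b1 37 counts in wildtype 1, and neither had a read in any other library. The summed T cell list was at 173 to 246 CPM in wildtype and 345 to 460 CPM in deficient libraries, and Cd3d, Cd3g and Trbc2 did not overlap between genotypes. Trbc1 had the highest level of this list, at means of 139 CPM in wildtype and 160 CPM in deficient libraries, and overlapped. Summed markers of B and plasma cells (6.18 to 17.2 CPM in wildtype and 3.90 to 15.2 CPM in deficient libraries), neutrophils (0 to 0.434 and 0 to 0.651 CPM) and mast cells and basophils (0.830 to 4.29 and 0 to 1.69 CPM) were low in both genotypes, with Pax5, Mpo and Fcer1a among those at 0. The summed monocyte, macrophage and dendritic cell list was at 461 to 494 CPM in wildtype and 400 to 442 CPM in deficient libraries, with Cd14, Flt3 and Xcr1 at 0. Itgax alone made up most of that sum, at means of 465 CPM in wildtype and 400 CPM in deficient libraries, and lay lower in all deficient libraries. Cd68 lay higher, at 2.08, 11.4 and 1.20 CPM in wildtype and 28.7, 20.99 and 20.04 CPM in deficient libraries. Summed erythroid and platelet markers were at 9.22 to 17.4 and 1.46 to 8.19 CPM, with Alas2 lower in all deficient libraries. Summed markers of other innate lymphoid cells (17.7 to 51.2 and 4.23 to 44.1 CPM) and of stroma and endothelium (36.8 to 49.97 and 33.5 to 82.6 CPM) overlapped between genotypes. The part of these markers' differences in the members' levels was not tested.

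**Figure D1:**
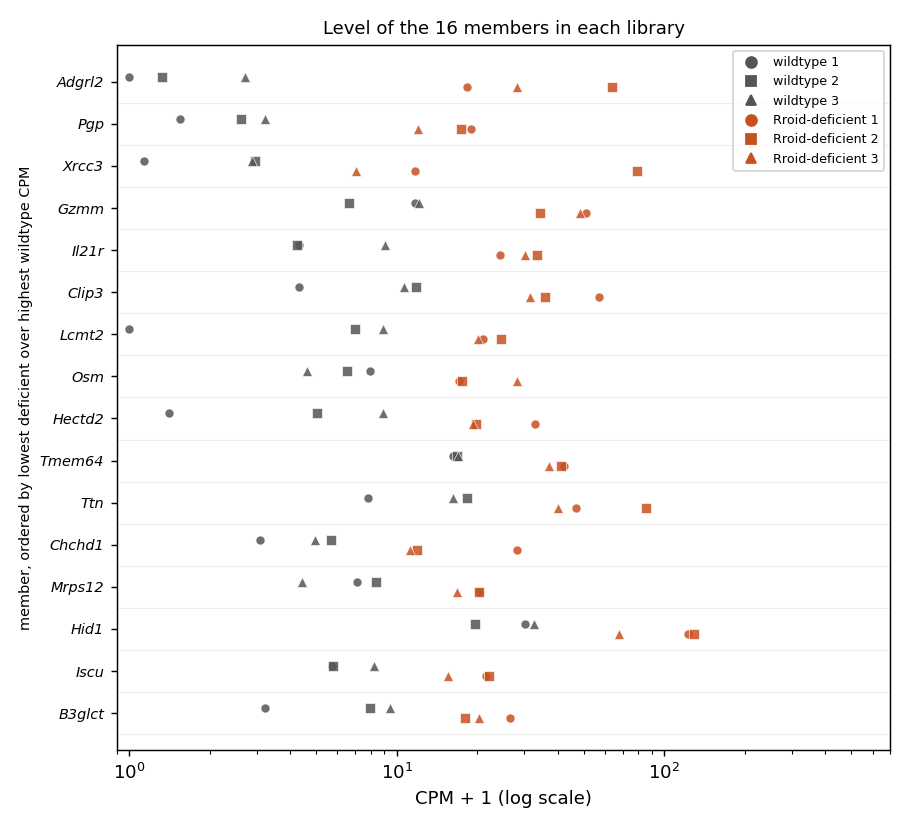
CPM plus 1, on a log axis, of the 16 members in each of the 6 libraries; grey marks are wildtype, orange marks Rroid-deficient, and the shape gives the library number. Genes are ordered from the widest gap between genotypes at the top, Adgrl2 at 10.04 times, to the narrowest, B3glct at 2.01 times.

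Receptors and secreted or granule proteins made up the first group, and it holds the widest gap of all. Adgrl2 encodes latrophilin 2, an adhesion G protein-coupled receptor. It had 0, 0.326 and 1.72 CPM in wildtype libraries 1 to 3 and 17.2, 62.8 and 27.2 CPM in deficient libraries 1 to 3, the order used throughout. Wildtype was at or close to no reads, with counts of 0, 3 and 10 against 127, 386 and 193, and deficient library 2 was the highest. The means were 0.681 ± 0.912 and 35.8 ± 23.9 CPM (SD, n = 3 each, here and for all means given). Summed counts gave a ratio of 58.7 (95% exact binomial interval 34.1 to 111, counting error only). The interval leaves out the spread between libraries and the choice of Adgrl2 by this contrast, so it is no test. The fold of means of Adgrl2, 52.5, was 220 without wildtype 3, 35.0 without wildtype 1 and 32.7 without deficient 2.

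Il21r encodes the receptor for IL-21, which pairs with the common gamma chain. Its levels were 3.32, 3.26 and 8.07 CPM in wildtype and 23.2, 32.5 and 29.2 CPM in deficient libraries, with means of 4.88 ± 2.76 and 28.3 ± 4.72 CPM (5.80-fold). Deficient libraries lay close to each other, and wildtype 3 was above the other wildtype libraries. Gzmm, which encodes the granule protease granzyme M, was at 10.7, 5.64 and 11.2 CPM in wildtype and 50.1, 33.4 and 47.6 CPM in deficient libraries. The means were 9.15 ± 3.05 and 43.7 ± 9.03 CPM (4.77-fold). Osm encodes oncostatin M, a secreted cytokine of the IL-6 family. It stood at 6.92, 5.53 and 3.61 CPM in wildtype and 16.2, 16.6 and 27.1 CPM in deficient libraries, with means of 5.35 ± 1.66 and 19.95 ± 6.19 CPM (3.73-fold), and deficient library 3 was the highest.

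Genes of membrane traffic, the cytoskeleton and protein modification formed the second group. Hid1 encodes a Golgi protein needed for sorting into secretory granules. Its values were 29.1, 18.7 and 31.6 CPM in wildtype and 121, 128 and 66.8 CPM in deficient libraries, where library 3 lay below libraries 1 and 2. The means were 26.4 ± 6.85 and 105 ± 33.6 CPM (3.99-fold). Clip3, a microtubule-associated linker protein of the trans-Golgi network, had 3.32, 10.9 and 9.62 CPM in wildtype and 56.1, 34.8 and 30.5 CPM in deficient libraries, means of 7.93 ± 4.04 and 40.5 ± 13.7 CPM (5.10-fold). Tmem64, a membrane protein of the endoplasmic reticulum, was the member with the least spread. It had 15.2, 15.7 and 15.97 CPM in wildtype and 41.0, 40.2 and 36.1 CPM in deficient libraries, means of 15.6 ± 0.381 and 39.1 ± 2.61 CPM, and the smallest fold of the 16, 2.50-fold.

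B3glct adds glucose to fucose on thrombospondin repeats, a step of protein glycosylation. Its levels were 2.21, 6.94 and 8.41 CPM in wildtype and 25.4, 16.9 and 19.3 CPM in deficient libraries, means of 5.86 ± 3.24 and 20.6 ± 4.37 CPM (3.51-fold), and wildtype 1 was the lowest. Hectd2, a HECT-type ubiquitin ligase, had 0.415, 4.01 and 7.90 CPM in wildtype and 31.8, 18.7 and 18.2 CPM in deficient libraries, means of 4.11 ± 3.74 and 22.9 ± 7.69 CPM (5.57-fold). Wildtype 1 was again close to no reads, and the fold was 10.3 without wildtype 3. Ttn encodes titin, the giant spring protein of muscle sarcomeres. It had 6.78, 17.3 and 15.3 CPM in wildtype and 45.6, 84.4 and 38.96 CPM in deficient libraries, means of 13.1 ± 5.56 and 56.3 ± 24.6 CPM (4.30-fold). Over its 116825 bases of exon this is 0.482 CPM per kilobase in deficient libraries, a level per length above that of only 4.596% of tested protein-coding genes.

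The third group encodes enzymes and parts of mitochondria, metabolism, RNA modification and DNA repair. Mrps12 and Chchd1 both encode proteins of the small subunit of the mitochondrial ribosome. Mrps12 had 6.09, 7.38 and 3.43 CPM in wildtype and 19.3, 19.4 and 15.8 CPM in deficient libraries, means of 5.63 ± 2.01 and 18.2 ± 2.03 CPM (3.22-fold). Chchd1 had 2.08, 4.67 and 3.95 CPM in wildtype and 27.2, 10.9 and 10.2 CPM in deficient libraries, means of 3.56 ± 1.34 and 16.1 ± 9.61 CPM (4.51-fold). Deficient library 1 was far above libraries 2 and 3 for Chchd1, and without it the fold was 2.96. Iscu, the scaffold on which iron-sulfur clusters are built, had 4.71, 4.77 and 7.21 CPM in wildtype and 20.6, 21.2 and 14.5 CPM in deficient libraries, means of 5.56 ± 1.43 and 18.8 ± 3.68 CPM (3.37-fold).

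Pgp encodes phosphoglycolate phosphatase, which removes a toxic side product of glycolysis. Its levels were 0.554, 1.63 and 2.23 CPM in wildtype and 17.9, 16.4 and 11.0 CPM in deficient libraries, means of 1.47 ± 0.8502 and 15.1 ± 3.64 CPM (10.3-fold). Only 32 reads lay behind the wildtype values and 311 behind the deficient ones. Lcmt2, an enzyme of wybutosine synthesis in a transfer RNA, was at 0, 5.97 and 7.90 CPM in wildtype and 19.96, 23.4 and 19.2 CPM in deficient libraries, means of 4.62 ± 4.12 and 20.9 ± 2.26 CPM (4.51-fold). Its deficient libraries were nearly level, while wildtype 1 had no read, and the fold was 3.01 without wildtype 1 and 6.99 without wildtype 3. Xrcc3, which acts in DNA repair by homologous recombination, had 0.138, 1.95 and 1.89 CPM in wildtype and 10.7, 77.8 and 6.07 CPM in deficient libraries. Its means were 1.33 ± 1.03 and 31.5 ± 40.1 CPM (23.8-fold). Deficient library 2 carried that mean, and without it the fold was 6.33.

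Over the 16, the fold of means ran from 2.50 to 52.5 with a median of 4.51. The median log2 fold of means was 2.17 for the members and -0.02 over the 9878 protein-coding genes tested. All 16 passed the filter on low counts. No member had fewer than 43 counts in a deficient library, so the libraries where members were chosen to be high were enough to pass it. The coefficient of variation within the deficient genotype had a median of 27.6% over members and 31.9% over the 6400 tested protein-coding genes with a mean deficient level of 15 CPM or more. Within wildtype it was 46.7% over members and 27.7% over those genes. The members' spread relative to the mean was thus wider among wildtype libraries, where their levels and counts were lower by choice. The rule also bounds the lowest deficient library from below, which can favour genes with less spread there. The lower deficient median of the members is therefore no trait apart from the choice. Wildtype 1 was the lowest wildtype library for 11 of the 16 and wildtype 3 the highest for 10. Deficient 3 was the lowest deficient library for 11, and deficient 2 and 1 were the highest for 8 and 7. Summed over members, the level was 91.5, 115 and 140 CPM in wildtype and 544, 637 and 418 CPM in deficient libraries 1 to 3.

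**Figure D2:**
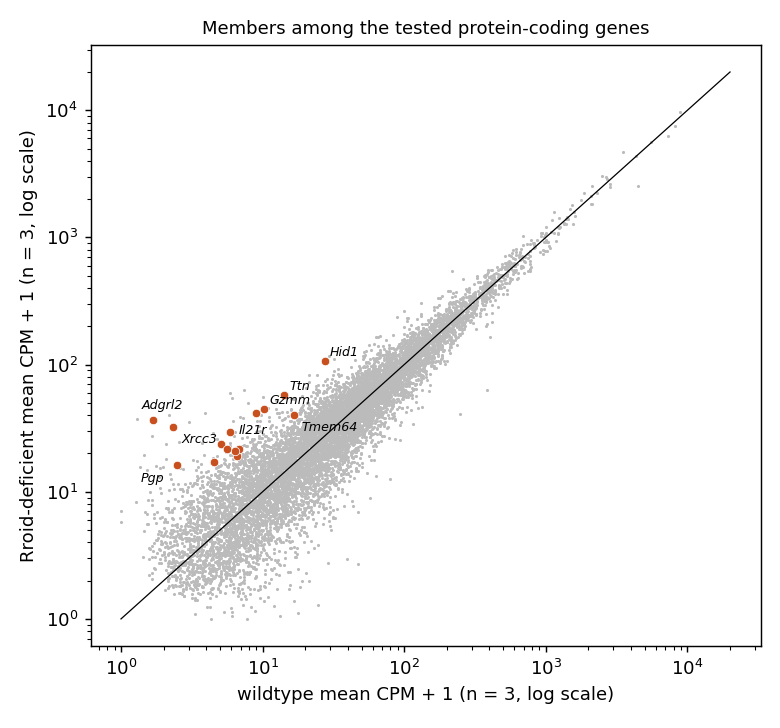
Mean wildtype CPM plus 1 (x, log axis) against mean Rroid-deficient CPM plus 1 (y, log axis), n = 3 libraries each, for the 9878 tested protein-coding genes; the line marks equal levels and orange points are the 16 members, 8 of them named. All members lie above the line, as the rule requires, at wildtype means of 0.681 to 26.4 CPM.

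The number of genes that the rule keeps was also counted for the other ways of setting 3 of the 6 libraries above the other 3. Of 19 other arrangements, 2 held more genes than 16 and 17 held fewer. Wildtype above deficient gave 22 genes. The 18 arrangements that mixed genotypes gave 2 to 34 genes, with a median of 5.5. The highest of these, 34 genes, set wildtype 2, wildtype 3 and deficient 3 above wildtype 1, deficient 1 and deficient 2. Tested genes with no read numbered 33, 27 and 46 in the former libraries and 660, 653 and 285 in the latter. The part of the undetected genes in the members' levels was not tested.

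With 1 library left out, the rule has fewer values to satisfy and kept more genes. It kept 21 genes without wildtype 1, 32 without wildtype 2, 45 without wildtype 3, 33 without deficient 1, 41 without deficient 2 and 71 without deficient 3. Leaving out a wildtype library cannot raise the highest wildtype level and leaves the deficient mean as it was. All 16 members were therefore bound to be kept in those settings. Leaving out a deficient library can drop a member only through the mean, and without deficient 3 all 16 were kept. Without deficient 1, Pgp and Chchd1 dropped under the mean of 15 CPM, and without deficient 2, Pgp and Xrcc3 did. With wildtype 1 and deficient 1 both left out, 46 genes were kept, 14 of the members among them. Library sizes scaled by TMM or RLE kept all 16 and added C1qtnf6 and F2rl1.

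Near the ratio of 2, the members just inside were B3glct (2.01), Iscu (2.02) and Hid1 (2.11). Just outside lay Uqcc1, an assembly factor of respiratory complex III (1.94), F2rl1, a protease-activated receptor (1.92), and Il4ra, the IL-4 receptor chain (1.90). Near the mean of 15 CPM, Pgp (15.1), Chchd1 (16.1) and Mrps12 (18.2) were inside. Slc24a2 (14.8), Vipr1 (14.4) and Ppargc1b (14.3) met the ratio and stayed outside.

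A fit over all 11724 tested genes gave the background for these counts. The edgeR quasi-likelihood test with Benjamini-Hochberg adjustment called 2 genes, or 0.0171%, and they were Id2, which fell, and Hspa1a, which rose. With any 1 library left out it called 0 genes. It called 0 of the 16 members, and 15 of the 16 had an unadjusted p under 0.05, against 620 of all genes. DESeq2 called 8 members (Adgrl2, Pgp, Xrcc3, Gzmm, Il21r, Clip3, Ttn and Hid1) and 0.569% of the genes with an adjusted p. These calls use the contrast that chose the members and are given only for their size.

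Relatives and partners of the members were compared as descriptions, over gene lists that were written with earlier results of these data known. Among tested protein-coding genes, all deficient libraries lay above all wildtype libraries in 4.97% and below in 7.11%. Of the 10 other tested genes among the common gamma chain receptors, their kinases and STAT factors, Il4ra and Il2ra lay above and the kinase gene Jak1 below. Il4ra had 13.7, 29.3 and 17.9 CPM in wildtype and 76.6, 55.8 and 85.2 CPM in deficient libraries. For Il2ra, the IL-2 receptor alpha chain gene, wildtype libraries were at 3.88, 3.26 and 5.15 CPM and deficient libraries at 21.9995, 16.4 and 7.48 CPM. Il2rg, the common gamma chain itself, overlapped between genotypes, at 336, 328 and 270 CPM in wildtype and 308, 239 and 315 CPM in deficient libraries, and Il21 had no read in any library. No gene of this list passed the edgeR threshold over all genes.

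**Figure D3:**
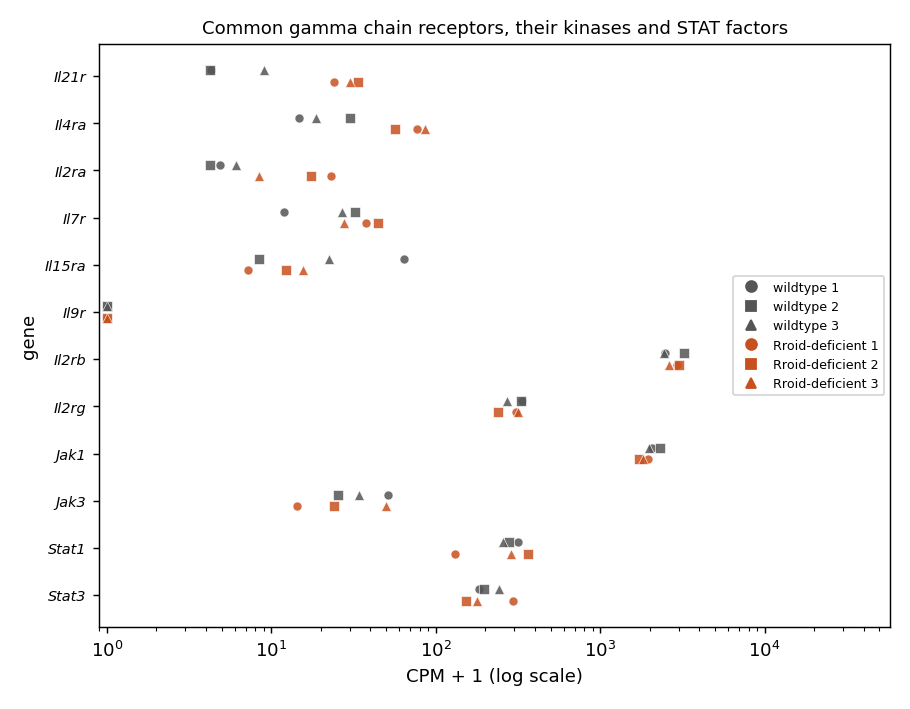
CPM plus 1, on a log axis, of the common gamma chain receptors, their kinases and STAT factors in each of the 6 libraries (grey wildtype, orange Rroid-deficient, shape for the library number). Il21r, Il4ra and Il2ra lie apart with deficient above wildtype, Jak1 with wildtype above deficient, and Il9r is at 0 in all.

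Of the 4 other tested granzyme genes, 0 lay above as Gzmm did, 2 lay below (Gzma and Gzmb) and 2 overlapped (Gzmc and Gzmk). Gzmc had mean levels of 0.832 CPM in wildtype and 3.62 CPM in deficient libraries, and Gzmd, Gzme, Gzmf and Gzmg had no read in any library. Gzma, which encodes granzyme A, was at 5078, 3958 and 4465 CPM in wildtype and 2181, 2718 and 2695 CPM in deficient libraries. Gzmb, which encodes granzyme B, was at 312, 409 and 436 CPM in wildtype and 110, 277 and 237 CPM in deficient libraries. Both thus had all deficient libraries below all wildtype libraries, the reverse of Gzmm, and neither passed the edgeR threshold. Per kilobase of exon, the wildtype mean of Gzmm was 6.22 CPM and its deficient mean 29.7 CPM, against 4474 and 2516 CPM for Gzma.

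Of 31 other tested genes for the small mitochondrial ribosomal subunit, a list written after the members were known, 0 lay above as Mrps12 and Chchd1 did. Mrps9 and Mrps24 lay below, and the median log2 fold of these 31 genes was -0.04. The remaining partner lists were also written after the members were known. Both other tested latrophilin genes overlapped between genotypes, and of these Adgrl1 had 51.2, 36.3 and 55.8 CPM in wildtype and 15.3, 55.5 and 34.3 CPM in deficient libraries. Among 11 other tested genes of iron-sulfur cluster assembly, the glutaredoxin gene Glrx5 lay above. The receptor chain gene Osmr had at most 5 reads in any library, and its partner chain gene Il6st overlapped between genotypes. Of 15 tested E protein, Id and linked genes, Id2 fell in the edgeR test, Tcf7, Cd28 and Myb were among those that lay above, and Tcf3 lay below.

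Members were also read beside the tested protein-coding genes next to them on the chromosome, by order on GRCm38. Of 32 neighbours, 4 lay above as the members did, 1 lay below and 27 overlapped. Over all tested protein-coding genes, 4.97% lay above and 7.11% below, and the difference from these shares was not tested. The gene next to Il21r is Il4ra, with the values given for it among the receptors. Next to B3glct lies the heat shock gene Hsph1, at 116, 63.7 and 85.3 CPM in wildtype and 197, 300.01 and 209 CPM in deficient libraries. Cwc22 beside Ttn and Mtmr3 beside Osm were the others above. Sars2, the mitochondrial seryl-tRNA synthetase gene beside Mrps12, lay below, with 81, 43 and 22 counts in wildtype and 1, 5 and 4 in deficient libraries. Mrps12 and Sars2 therefore differed between genotypes in opposite directions. The sources used here give no strand setting for the counting, so reads of overlapping genes cannot be told apart. In the GRCm38 annotation, exons of Mrps12, Il21r, B3glct and Osm overlap no other gene. Those of Ttn overlap only an antisense transcript, not Cwc22.

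**Figure D4:**
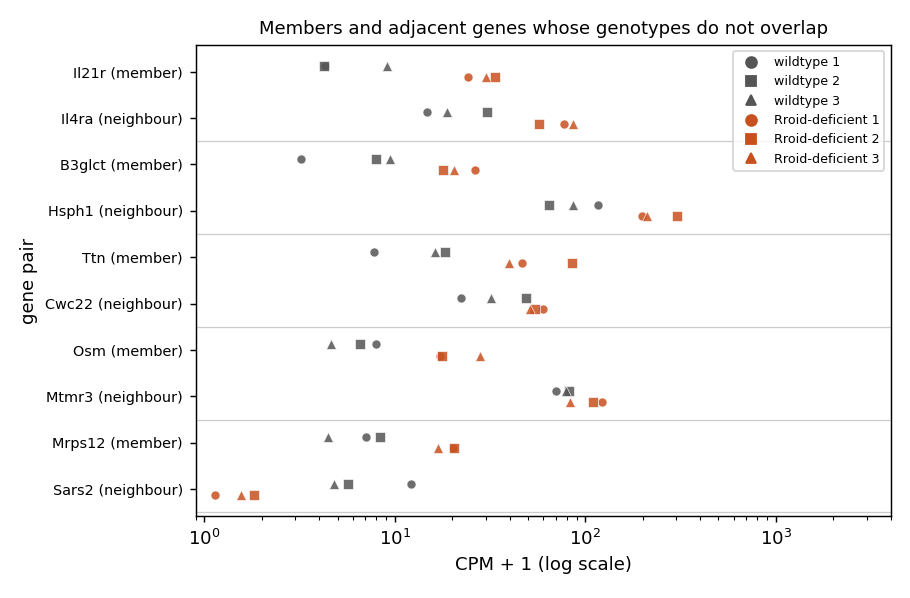
CPM plus 1, on a log axis, of 5 members and the adjacent gene of each whose genotypes did not overlap, in the 6 libraries (grey wildtype, orange Rroid-deficient, shape for the library number). Il4ra, Hsph1, Cwc22 and Mtmr3 lie higher in deficient libraries, and Sars2 lies lower.

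In position and structure the members were scattered. They lay on 11 chromosomes, with 3 on chromosome 7 (Il21r, Clip3 and Mrps12), which holds 7.59% of tested protein-coding genes, and 1, Xrcc3, on chromosome 12, where Id2 lies. Exonic length had a median of 3337 bases over members and 4628 over tested protein-coding genes. The GC content of the longest transcript had medians of 54.0% and 49.2%. The level per kilobase of exon in deficient libraries had a median of 8.58 CPM over members and 5.92 over tested protein-coding genes, and 11 of the 16 were above the latter. The rule asks for a mean of 15 CPM or more in deficient libraries, which only 6400 of the 9878 tested protein-coding genes reached. The higher median of the members thus rests on values that chose them. Exons of Adgrl2, Xrcc3, Lcmt2, Hectd2, Ttn and Chchd1 overlap those of another annotated gene, in most cases an antisense transcript, and their counts are uncertain to that extent. These are 6 of the 16, and 39.6% of tested protein-coding genes have such an overlap, so the shares are close.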

How the data were processed

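The authors deposited 1 table of read counts per gene for each of the 6 libraries, as whole numbers with no normalization. Per the submitters' processing notes, the tools were HTSeq 0.6.1, TopHat2 2.1.0, DESeq2 and Trimmomatic 0.33, with NCBIM37 and mm9 as builds. Libraries were made with an Ovation kit, which amplifies cDNA, per the labels' protocols. The sources used here give neither their roles nor a strand setting. Rows that name no gene held 80.0% to 84.4% of the reads and were left out. A count of 3 corresponds to 0.326 to 0.515 CPM.

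CPM was the count divided by the sum of the gene rows times 1000000. Gene symbols, biotypes, exon lengths and order came from an annotation on GRCm38, and 5053 of 37991 IDs had no entry and could not be members. Genes named in the text are the members, those nearest the thresholds, neighbours and genes of the lists. The members and lists were chosen with earlier results of these data known, and the partner lists after the members were known. The genotypes were compared over all 11724 genes that passed edgeR's expression filter, with edgeR 4.0.16 (quasi-likelihood, TMM, adjusted p under 0.05) and DESeq2 1.42.0 as the alternative. The edgeR fit, but not DESeq2, was also run on simulated data with known changes, and the outcome is not reported here. Alternatives were other scalings, thresholds and filters, a replicate block, and leaving out libraries. Some genes of the lists are not reported here.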

Additional observations from a re-analysis of the deposited data

How the results depend on the processing

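The rule kept 3 genes at a ratio of 3, 50 at a ratio of 1.5, 7 at a mean of 30 CPM, 33 at a mean of 5 CPM, and 46 without wildtype 1 and deficient 1. Leaving out each library in turn gave 21 to 71 genes. Totals without the 50 most abundant genes kept 15 genes, with Pgp lost, and TMM, RLE and all biotypes each kept 18. The edgeR test called 2 genes with the filter, 98 without it, 0 with each library left out and 0 with the replicate block, and DESeq2 called 65. Of the members, edgeR called 0 with the filter and 4 without it, and DESeq2 called 8. The cause of these differences was not tested.

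The replicate numbers were not found to pair the libraries: deviations of same-numbered libraries from their genotype means correlated at 0.014, -0.017 and 0.040, and wildtype 1 correlated best with deficient 2. Of 128 folds of members under the alternatives, 127 moved by less than the spread between replicates, and that of Adgrl2 without wildtype 3 was 220. The lowest was 2.44, and since the rule sets every deficient library at 2 times or more above every wildtype library, leaving out a library could not reverse a fold. With 3 libraries a genotype and wildtype counts as low as 0, folds of the low members are imprecise.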

Other observations

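Genes that met both thresholds but were left out by name were Cd3g, Cd3d, Hspa1a and Hspa1b. The CD3 gamma chain gene Cd3g had 38, 43 and 53 counts in wildtype and 466, 336 and 493 in deficient libraries. Hspa1a, an inducible heat shock protein 70 gene, had 2, 4 and 1 counts in wildtype and 236, 234 and 273 in deficient libraries. Of the genes not annotated as protein-coding, the pseudogene Gm17228 had 0, 42 and 16 against 141, 263 and 78 counts. An ID without annotation had 1, 0 and 0 against 515, 3 and 2 counts, so that deficient library 1 alone carried its mean.

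Further lists linked to genes near the members were counted the same way, against 4.97% of tested protein-coding genes with all deficient libraries above and 7.11% below. In the KIT receptor list, 12 genes were tested, with Kit above and the kinase subunit genes Pik3r1 and Pik3ca below. In the protease-activated receptor list, 9 were tested, with F2rl1 above and Gnaq and Arrb2 below. Of 10 tested Nr4a, Egr and linked genes, Nr4a3 lay above and 0 below. Of 15 tested heat shock genes listed from the families left out by name, 9 lay above and 0 below, and edgeR's quasi-likelihood test called Hspa1a. The list was written with earlier results known and does not hold all genes of these families. Off the list, mean levels went either way. Hspa1l had means of 7.89 CPM in wildtype and 1.46 CPM in deficient libraries, and Dnajb9 had 23.2 and 57.4 CPM.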
